A study of Homo sapiens with 6 samples.

Results

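The expression of 5 genes that normally belong to the B-cell lineage was followed in DND41 cells, a human line of T-cell acute lymphoblastic leukaemia (T-ALL): CD79A, CD79B, IGLL1, EBF1 and PAX5. They were listed by name and chosen by their level: a mean over the 6 libraries of at least 10 normalized counts. All 5 listed genes passed, out of 17202 genes in the table, of which 13465 passed the same filter. The means that chose them were 11676 for CD79A, 936 for EBF1, 586 for IGLL1, 153 for CD79B and 15.1 for PAX5, so PAX5 lay nearest to the limit and no listed gene lay below it. The rule itself uses no difference between the groups.

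DND41 cells received MB1-47, a mitochondrial uncoupler according to the title of the series, or DMSO as the control, for 24 h, and each group has 3 libraries. The labels give the dose as 4 mM, repeated here as written. All libraries come from 1 cell line without a genetic change between groups, plated in triplicate. Nothing in the labels ties the replicates to independent cultures, and the p-values therefore measure a spread that may be technical. In the library names MB1 means the compound, while RefSeq also lists MB1 as a synonym of CD79A.

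CD79A and CD79B form the heterodimer that carries signals of the B-cell antigen receptor into the cell. IGLL1 encodes lambda5, which pairs with VPREB1 to form the surrogate light chain of the pre-B-cell receptor. EBF1 and PAX5 are transcription factors that commit lymphoid progenitors to the B lineage, and the genes of the receptor chains above are among their known targets. T-ALL cells are known at times to carry CD79A, which makes this gene a marker to be read with care when leukaemias are assigned to a lineage.

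The table gives normalized counts, which are read counts that the authors scaled between libraries. Their sum was 28323700 to 32667500 in a library, which is no read depth. The most frequent value between 0.5 and 1.5 was 0.74 to 1.17 depending on the library, which may be the worth of a single read. Library correlations on the log2 scale over tested genes were 0.955 to 0.968 within groups and 0.927 to 0.948 between them. The T-lineage label was met by the marker genes: 14 of 15 T-lineage markers had a value, all with a mean of at least 10, and their summed level ran from 56237 to 60259 normalized counts with DMSO and from 36353 to 39696 with MB1-47. CD2 and CD5 were the lowest of these, at means of 49.2 and 9.3 with DMSO and 33.8 and 17.8 with MB1-47. Of 12 further B-lineage markers, 6 had a value and 4 had a mean of at least 10, with sums of 1378 to 1446 with DMSO and 1077 to 1179 with MB1-47. Myeloid and erythroid markers were near 0, with summed levels of at most 40.0 and 31.7 in any library. NK markers (KLRD1 and NKG7) summed to 195 to 291 with DMSO and 200 to 297 with MB1-47. Plasma cell markers (MZB1, PRDM1 and JCHAIN) summed to 2359 to 2498 with DMSO and 2707 to 3525 with MB1-47. All libraries come from the same cell line, so signal of NK or plasma cell markers does not show such cells in them. Whether any other cells were present was not tested.

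The promoters of CD79A and IGLL1, the 2 genes that fell, are shown because EBF1 and E proteins are known to act at the promoters of such genes in B-cell progenitors. Each stretch lies upstream of the outermost start in RefSeq or GENCODE 29, and is RefSeq sequence of GRCh38.p14 written 5′ to 3′ on the gene's strand. Capitals mark matches to the E-box CANNTG, the RUNX core TGTGGT, the EBF palindrome CCCNNGGG and the RBPJ motif TGGGAA, each on both strands; the last had no match in either. CD79A is on the plus strand (chr19:41877029-41877119) and IGLL1 on the minus strand (chr22:23580309-23580540).
CD79A: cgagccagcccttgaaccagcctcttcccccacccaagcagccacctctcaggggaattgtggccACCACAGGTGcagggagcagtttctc
IGLL1: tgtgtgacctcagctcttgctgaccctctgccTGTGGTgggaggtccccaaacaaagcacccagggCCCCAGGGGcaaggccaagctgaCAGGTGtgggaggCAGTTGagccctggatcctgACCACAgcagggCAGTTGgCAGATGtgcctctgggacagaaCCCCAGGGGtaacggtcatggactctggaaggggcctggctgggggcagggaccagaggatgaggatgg

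Motifs were counted in the 250 bases upstream of the RefSeq start. In CD79A, 1 E-box lay 181 to 176 bases upstream and overlapped 1 RUNX core on the other strand at 185 to 180. The CD79A window had 0 matches to the EBF palindrome. This strict pattern misses sites that depart from its letters, so the 0 does not show that an EBF1 site is absent. IGLL1 had 5 E-boxes, 2 RUNX cores and 4 matches to the EBF palindrome, which overlap in pairs at 184 to 176 and at 87 to 79 bases upstream. Among 27305 promoters of the same length, 62.2% held an E-box, 10.9% a RUNX core, 16.6% the EBF palindrome and 21.1% the RBPJ motif. The ETS core GGAA was found 3 times in CD79A and 1 time in IGLL1, against 92.8% of promoters with a match. The octamer ATGCAAAT, present in 1.66% of promoters, was in neither. The RefSeq windows of EBF1 and PAX5 held 2 E-boxes and 1 E-box, 0 matches to the EBF palindrome and 0 RUNX cores. The RefSeq start of EBF1 lies 1805 bases inside the outermost start in GENCODE 29. EBF1 also held 1 RBPJ motif. These matches describe letters in a window, and no binding was measured.

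With MB1-47, CD79A and IGLL1 were lower, EBF1 was slightly higher, and CD79B and PAX5 did not pass the threshold, an adjusted p of 0.05. Of the 5 genes 2 passed as lower and 1 as higher, against backgrounds of 19.8% lower and 18.3% higher among the 13465 genes tested (38.1% in either direction). In 3 of 5 the groups did not overlap, against 49.3% of all tested genes. With equal library totals the median change of all genes moved from 0.02 to 0.15 on the log2 scale, and the split of calls from 2458 higher and 2667 lower to 3335 higher and 2063 lower. The 5 changes were then -1.15 for CD79A, -1.56 for IGLL1, -0.17 for CD79B, 0.55 for EBF1 and 0.41 for PAX5, with the same calls. The summed T-lineage markers were lower with MB1-47 too, and the part of this in the results was not tested. In bulk RNA, fewer cells with a transcript and less of it per cell cannot be told apart.

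CD79A (ENSG00000105369.9, chromosome 19 from 41877120 to 41881372, plus strand) was the most abundant of the 5. It stood at 16560, 15937 and 17081 normalized counts in DMSO replicates 1 to 3 and at 6378, 7102 and 6996 in MB1-47 replicates 1 to 3. Every DMSO library was more than 2-fold above every MB1-47 library. The mean fell from 16526 ± 573 to 6826 ± 391 (SD, n = 3), a 2.42-fold decrease, and the log2 change was -1.28 ± 0.08 (SE; limma adjusted p = 8.8e-07). Of all tested genes 704 had a lower log2 change. Over the 15 alternative settings the change lay between -1.31 and -1.13 and passed the threshold each time.

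CD79B (ENSG00000007312.12, chromosome 17 from 63928740 to 63932354, minus strand), the partner chain, was far lower. Its values were 190, 149 and 163 with DMSO and 183, 103 and 132 with MB1-47, so the groups overlapped, with MB1-47 replicate 1 above DMSO replicates 2 and 3. The log2 change was -0.30 ± 0.28, with a 95% interval of -0.92 to 0.33 (adjusted p = 0.448). AC127029.3, a gene annotated on the same strand, overlaps CD79B and was not analysed here.

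The ratio of the 2 chains was lower with MB1-47 in these libraries, a difference that did not pass a test. CD79A exceeded CD79B by 87.3, 107 and 105 times in the DMSO libraries and by 34.9, 69.2 and 53.1 times in the MB1-47 libraries, without overlap. On the log2 scale the ratio dropped by 0.98, from 6.63 ± 0.16 to 5.64 ± 0.50 (SD, n = 3). The exact permutation test, two-sided, gave p = 0.1, the smallest that 3 against 3 allows (adjusted p = 0.14 over the 7 ratios computed). The 2 transcripts differ little in length, 1258 and 1269 bases for the longest protein-coding transcript, so the excess of CD79A is about the same per length.

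IGLL1 (ENSG00000128322.6, chromosome 22 from 23573125 to 23580308, minus strand), the surrogate light chain gene, fell most of the 5. It had 792, 841 and 1048 normalized counts in the DMSO libraries and 223, 343 and 267 in the MB1-47 libraries. The lowest DMSO value was more than 2-fold above the highest MB1-47 value. The mean went from 894 ± 136 to 278 ± 60.7, a 3.22-fold decrease, with a log2 change of -1.69 ± 0.20 (adjusted p = 5.9e-05). Of the tested genes 323 had a lower log2 change. The change stayed between -1.86 and -1.55 over the 15 alternatives and passed in all of them. IGLL1 resembles the immunoglobulin lambda constant genes and IGLL5 in sequence; no value of those was used here, and shared reads make its value uncertain. VPREB1, its partner in the surrogate light chain, is likewise among the listed genes with no value used here.

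Whether IGLL1 fell further than CD79A was not settled. The ratio of IGLL1 to CD79A was 0.048, 0.053 and 0.061 with DMSO and 0.035, 0.048 and 0.038 with MB1-47. Only DMSO replicate 1 (0.0478) and MB1-47 replicate 2 (0.0483) overlapped. The log2 ratio differed by -0.42 between groups (exact permutation p = 0.2, two-sided, adjusted p = 0.23). The smallest p of this test is 0.1, and the result does not show that both fell alike.

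EBF1 (ENSG00000164330.16, chromosome 5 from 158695916 to 159099761, minus strand), the B-lineage factor that opens chromatin at B-cell genes, moved the other way. It stood at 903, 695 and 797 with DMSO and at 944, 1246 and 1027 with MB1-47. All MB1-47 libraries were above all DMSO libraries, with DMSO replicate 1 and MB1-47 replicate 1 the closest. The mean rose from 799 ± 104 to 1072 ± 156, a 1.34-fold change, and the log2 change was 0.42 ± 0.15 (95% interval 0.09 to 0.76; adjusted p = 0.0471). That call was close to the threshold: it passed in 7 of 15 alternatives, and over all 15 the adjusted p ran from 0.0148 to 0.165. It was lost without DMSO replicate 2 (0.149), DMSO replicate 3 (0.104), MB1-47 replicate 2 (0.165) or MB1-47 replicate 3 (0.0857), and 3485 tested genes had a higher log2 change.

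The ratios of EBF1 to the receptor genes were higher with MB1-47. EBF1 was 0.055, 0.044 and 0.047 of the CD79A value in DMSO libraries and 0.148, 0.176 and 0.147 of it in MB1-47 libraries, a 3.25-fold higher ratio. Against IGLL1 the ratio was 1.14, 0.83 and 0.76 with DMSO and 4.23, 3.63 and 3.84 with MB1-47, 4.34-fold higher. Neither ratio overlapped between the groups, which follows from EBF1 on one side and CD79A and IGLL1 on the other, each without overlap. Both had an exact permutation p = 0.1, two-sided, the smallest possible (adjusted p = 0.14). That p was thereby fixed and adds nothing to the results of the single genes.

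PAX5 (ENSG00000196092.12, chromosome 9 from 36833275 to 37034185, minus strand), which holds B cells to their lineage and represses genes of other lineages, was barely detected. Its values were 13.04, 11.5 and 15.2 with DMSO and 16.4, 11.4 and 23.1 with MB1-47. The groups overlapped, since MB1-47 replicate 2 was the lowest library of all. The log2 change was 0.29 ± 0.68, and its 95% interval of -1.22 to 1.79 leaves a rise or a fall of more than 2-fold undetected at this level (adjusted p = 0.775).

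**Figure D1:**
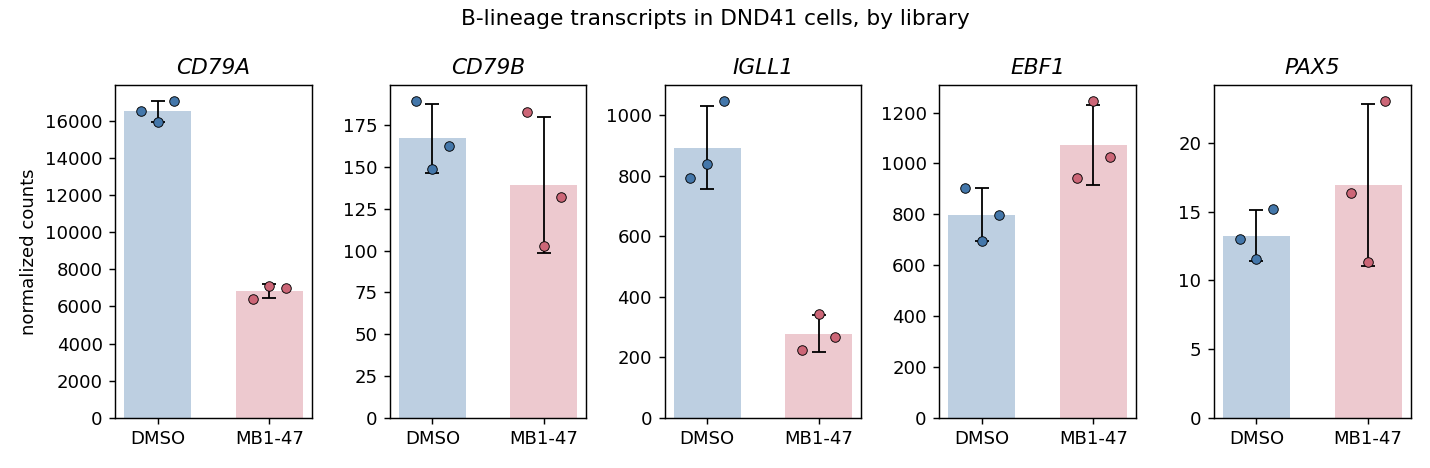
Normalized counts of the 5 genes in each library (points), with the group mean (bars) and SD (error bars), n = 3 per group, each panel on its own linear axis from 0. CD79A and IGLL1 are lower in every MB1-47 library, EBF1 is higher in every one by a narrow margin, and CD79B and PAX5 overlap.

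Levels of different genes were compared per kb of the longest protein-coding transcript in GENCODE 29. With DMSO the order was CD79A at 13137 ± 455 normalized counts per kb, IGLL1 at 992 ± 151, EBF1 at 152 ± 19.8, CD79B at 132 ± 16.3 and PAX5 at 1.54 ± 0.22 (SD, n = 3). EBF1 (132 to 172) and CD79B (117 to 149) overlapped between libraries, while the other neighbours in that order did not. With MB1-47 the order was the same, at 5426 ± 311, 308 ± 67.4, 204 ± 29.8, 110 ± 32.0 and 1.97 ± 0.68 per kb. IGLL1 (248 to 381) then lay just above EBF1 (180 to 237). With the median transcript length in place of the longest, the order held, and PAX5, whose transcripts vary most in length, stood at 13.02 per kb with DMSO.

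CD79A was among the most abundant mRNAs of these T-ALL cells. With DMSO it ranked 80 of 12246 tested genes with a protein-coding transcript by level per kb, and with MB1-47 it ranked 190. It stood above the CD3 chains, the signalling subunits of the T-cell receptor: CD3E had 7427 per kb, CD3D 6589 and CD3G 5570 with DMSO. With MB1-47 CD79A (5426 per kb) was below CD3E (6629) and above CD3D (2802). By median transcript length its order against CD3E turned, with 8521 per kb for CD79A and 7234 for CD3E with MB1-47. IGLL1 ranked 2232 with DMSO and 5799 with MB1-47, EBF1 7625 and 7032, CD79B 7899 and 8371, and PAX5 12107 and 12059.

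**Figure D2:**
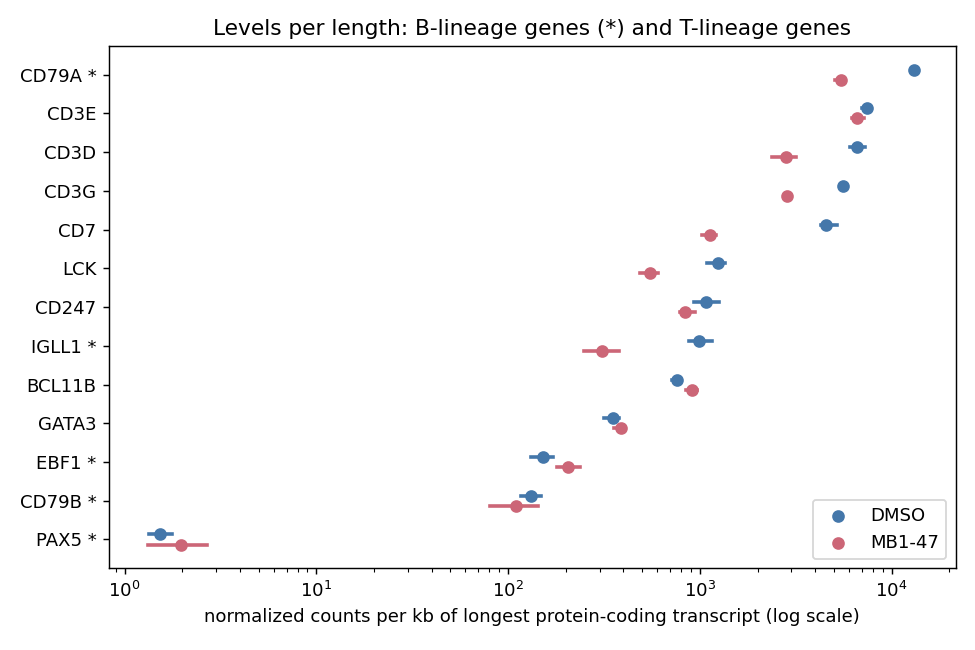
Normalized counts per kb of the longest protein-coding transcript on a log axis for the 5 B-lineage genes (marked *) and 8 T-lineage genes, with the mean of 3 libraries (points) and their range (lines). CD79A at 13137 per kb with DMSO lies above CD3E at 7427, and PAX5 lies near 1.54.

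Of the CD3 chains named above, CD3D and CD3G fell and CD3E did not pass. CD3G (added to complete the chains) went from 14982 ± 339 to 7693 ± 42.7, a log2 change of -0.96 ± 0.07 (limma adjusted p = 2.5e-06). CD3D went from 5673 ± 517 to 2412 ± 338 (-1.24 ± 0.12; adjusted p = 1.5e-05), and the ratio of CD79A to CD3D was 3.17, 2.87 and 2.74 with DMSO and 3.11, 2.61 and 2.84 with MB1-47 (log2 difference -0.04; exact permutation p = 0.7, two-sided). CD3E stood at 11497 ± 573 and 10261 ± 766 (-0.17 ± 0.08; adjusted p = 0.143). The ratio of CD79A to CD3E was 1.42, 1.47 and 1.43 with DMSO and 0.661, 0.639 and 0.698 with MB1-47, without overlap (exact permutation p = 0.1, two-sided; adjusted p = 0.14). Of 28 tested T-lineage markers 10 were lower and 2 higher, against 19.8% and 18.3% of all genes tested. Their median was -0.35 beside 0.02 for all genes tested. CD7 (-2.02 ± 0.10), CD1A (-1.86 ± 0.13) and CD3D fell most among those with a mean of at least 50, and the costimulatory receptor CD28 rose (1.41 ± 0.21). NOTCH1, the receptor whose signal drives T-cell fate, changed by -0.89 ± 0.12. BCL11B, a T-lineage factor, changed by 0.26 ± 0.09 (adjusted p = 0.0317), a call lost without DMSO replicate 2 or 3 or MB1-47 replicate 1 or 3 (adjusted p = 0.0621 to 0.119). GATA3 (0.13 ± 0.12) and TCF7 (-0.14 ± 0.33) did not pass. Without MB1-47 replicate 3 only 1 of the markers was higher, and likewise without DMSO replicate 3; with equal totals 4 were higher.

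Among other chains and surface proteins of B cells, 10 of 26 listed genes had a value and 7 were tested. By limma 3 were lower and 0 higher (3 and 0 at an unadjusted p under 0.05), against 19.8% and 18.3% of all genes tested. The median was -0.75. TNFRSF13C, the receptor for the B-cell survival factor BAFF, changed by -1.17 ± 0.28 (from 233 ± 37.4 to 104 ± 25.3), and its groups did not overlap. CD81 (-0.77 ± 0.12), a tetraspanin, and CR2 (-0.75 ± 0.20), a complement receptor of B cells, were lower too. Without DMSO replicate 1 a gene of this list, CXCR5 (named after its values were seen), passed as higher; it was listed at 0 in DMSO replicate 2.

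Of 20 listed genes that relay B-cell receptor signals, 13 were tested. Among these, 4 were higher and 1 lower (median -0.05), against 18.3% and 19.8% of all genes tested. SYK, the kinase that docks on the CD79 chains, had a mean of 13.2 ± 8.5 in DMSO libraries and 10.6 ± 8.9 in MB1-47 libraries, and BLNK, the adaptor it phosphorylates, had at most 3.75 in any library. The 4 higher genes were FYN (0.70 ± 0.09), a kinase that T cells also use, MALT1 (0.31 ± 0.10), PRKCB (0.29 ± 0.09) and PIK3CD (0.29 ± 0.09, added to complete the count). The lower one was the phosphatase INPP5D (-0.47 ± 0.15), whose groups overlapped. PIK3AP1, an adaptor for PI3-kinase (added), had -1.54 ± 0.56 and an adjusted p of 0.0502, and passed in 5 of 15 alternatives. Only FYN passed in all 15 alternatives. Leaving out 1 library gave 1 to 3 genes higher; without MB1-47 replicate 2 or 3 it was 1, and without DMSO replicate 1 or 3 it was 2. INPP5D was lost without DMSO replicate 2 or 3 or MB1-47 replicate 1 or 3 (adjusted p = 0.0954 to 0.134) and with equal totals (-0.34; adjusted p = 0.133). BLK, a SRC-family kinase of B cells, stood at 1001 ± 91.2 and 901 ± 79.8 (-0.15 ± 0.13; adjusted p = 0.398).

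Of 18 tested transcription factors that work beside EBF1 and PAX5, 6 were higher and 3 lower, against 18.3% and 19.8% of all genes tested. Their median change was 0.10. TCF3, which encodes the E2A proteins that act with EBF1, fell from 5622 ± 249 to 4181 ± 334 (-0.43 ± 0.09; adjusted p = 0.00303). TCF12 (0.47 ± 0.09, added), another E protein, rose. FOXO1, which acts upstream of EBF1 in B-cell progenitors, rose from 293 ± 52.4 to 523 ± 44.4 (0.84 ± 0.19). BACH2 (1.32 ± 0.17), SOX4 (0.88 ± 0.07) and ETS1 (0.64 ± 0.08, added) were higher as well, and IKZF1, which encodes Ikaros, changed by 0.22 ± 0.07. The IKZF1 call was lost without any 1 of the libraries other than MB1-47 replicate 2 (adjusted p = 0.0542 to 0.128). LEF1 (-0.27 ± 0.08) and RUNX1 (-0.20 ± 0.07) passed as lower on the deposited scale. With quantile normalization LEF1 changed by -0.06 (adjusted p = 0.628) and RUNX1 by -0.00028 (adjusted p = 0.998), and with equal totals by -0.14 (adjusted p = 0.195) and -0.07 (adjusted p = 0.395). The LEF1 call was lost without DMSO replicate 1 or 3 or MB1-47 replicate 3 (adjusted p = 0.0599 to 0.118) and the RUNX1 call without any 1 library (0.0675 to 0.103). With equal totals 8 of the list were higher and 1 lower, and without DMSO replicate 1, DMSO replicate 3 or MB1-47 replicate 3 there was 1 lower gene. POU2AF1, a coactivator of octamer factors in B cells, had 689 ± 11.6 and 782 ± 34.3 and did not pass (adjusted p = 0.293).

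ID2 and ID3, which bind E proteins and keep them off DNA, were lower. ID2 stood at 3397, 3244 and 3258 with DMSO and at 1815, 1386 and 1573 with MB1-47 (-1.06 ± 0.11; adjusted p = 3.3e-05). ID3 had 52.9, 31.7 and 46.6 with DMSO and 4.32, 9.46 and 14.8 with MB1-47 (-2.19 ± 0.66; adjusted p = 0.0215). ID1, with 7.94 ± 6.80 in DMSO libraries and 11.7 ± 5.75 in MB1-47 libraries, had a mean under 10 and was not tested. The groups of ID2 and ID3 did not overlap, but the ID3 call was lost without DMSO replicate 1 or 3 or MB1-47 replicate 1 (adjusted p = 0.0577 to 0.0744). The list of EBF and PAX paralogs, ID factors and zinc fingers that bind EBF1 had 5 tested genes. By limma ID2 and ID3 were lower and 0 were higher (2 and 0 at an unadjusted p under 0.05). The shares over all genes tested were 19.8% lower and 18.3% higher. EBF1 was 0.27, 0.21 and 0.24 of the ID2 value with DMSO and 0.52, 0.90 and 0.65 of it with MB1-47, without overlap. Its exact permutation p of 0.1, two-sided (adjusted p = 0.14), was fixed by EBF1 and ID2, which each lacked overlap in opposite directions. The paralog EBF3 had 48.9 in MB1-47 replicate 3 and at most 6.92 elsewhere, and PAX8 stood at 172 ± 4.3 and 187 ± 44.3.

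Genes that recombine antigen receptor loci are shared by B and T progenitors. Of 10 tested, 4 were lower and 2 higher (median -0.22), against 19.8% and 18.3% of all genes tested. RAG1, a subunit of the recombinase, fell from 39256 ± 782 to 29637 ± 1481 (-0.41 ± 0.07), but with quantile normalization its change was -0.13 (adjusted p = 0.215). DNTT, the polymerase that adds bases at the joints, rose from 71.2 ± 16.6 to 180 ± 5.7 (1.35 ± 0.29). XRCC6 (-1.12 ± 0.09), PRKDC (-1.07 ± 0.14) and XRCC5 (-0.68 ± 0.08), which bind broken ends, were lower. LIG4 (0.42 ± 0.12), the ligase, was higher, a call lost without DMSO replicate 2 or 3 or MB1-47 replicate 1 (adjusted p = 0.0633 to 0.0808). Without any 1 of those libraries, 1 gene of the list was higher. Of the lymphoid progenitor receptors, 2 were tested, IL7R (-0.21 ± 0.09) and IL2RG (-0.22 ± 0.09), and by limma 0 passed (2 lower and 0 higher at an unadjusted p under 0.05). Of 4 tested myeloid, erythroid and NK markers 0 passed by limma, also at an unadjusted p under 0.05.

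**Figure D3:**
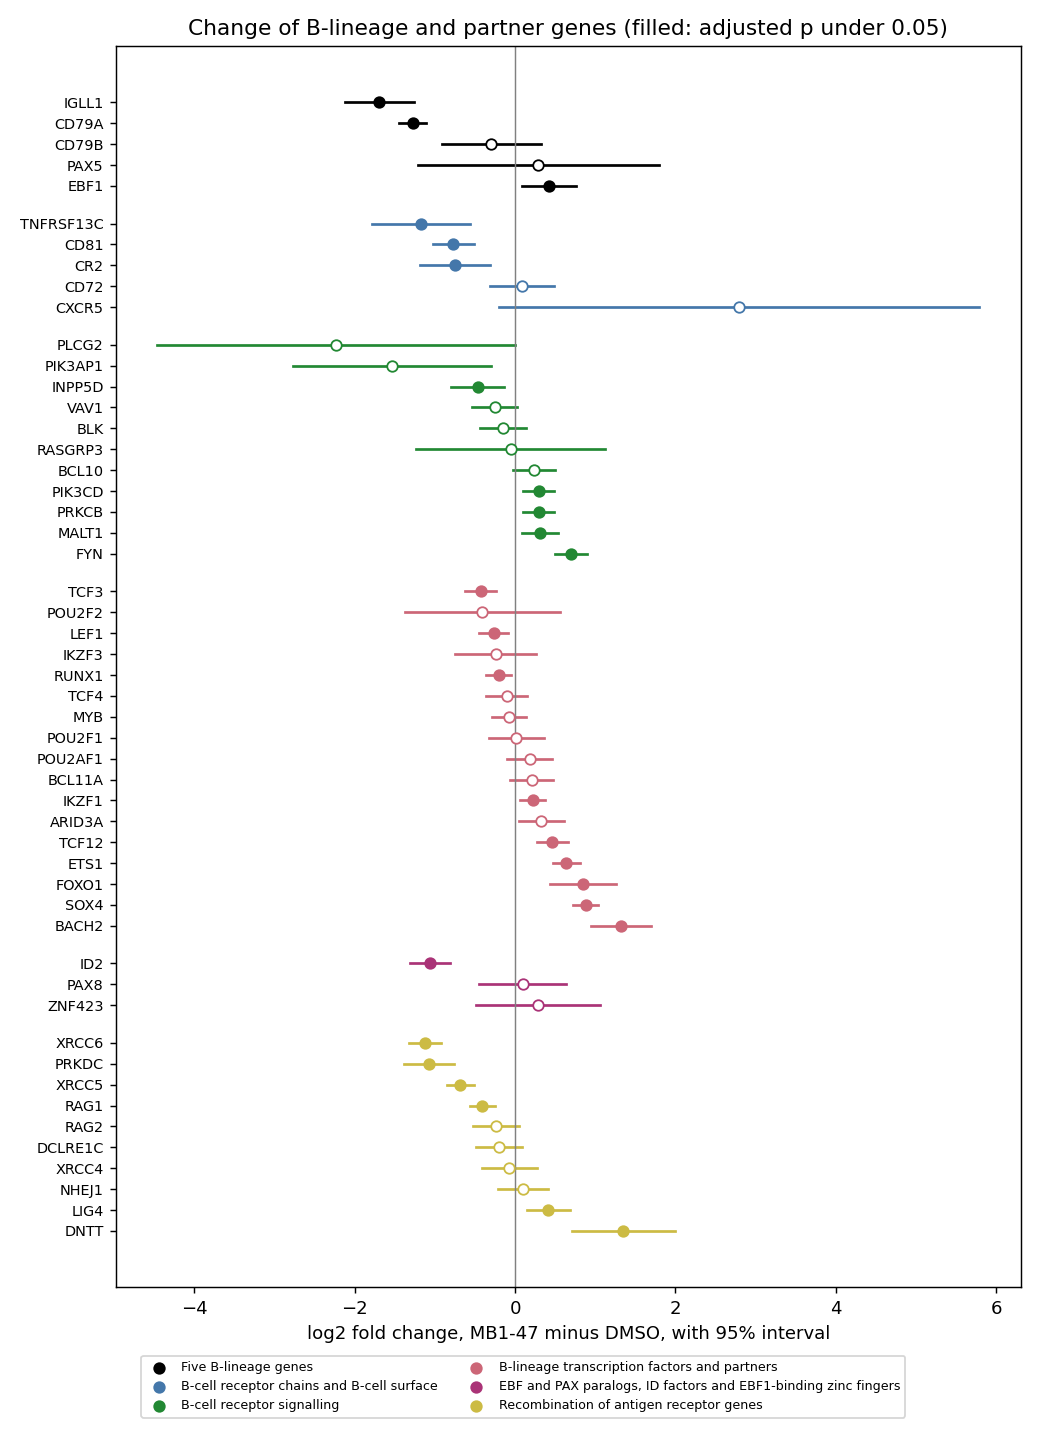
Log2 change (MB1-47 minus DMSO, on log2(value + 1)) with its 95% interval from limma for the 5 genes (top, black) and for genes of 5 lists with a mean of at least 50; filled points have an adjusted p under 0.05. CD79A at -1.28 and IGLL1 at -1.69 lie left of 0, EBF1 at 0.42 just right of it, and the partner factors lie on both sides.

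The genes most like each of the 5 over the 6 libraries were found by Pearson's r on log2 values, among genes with a mean of 50 or more. They were HSP90AB1, MCM7 and GPI for CD79A (r = 0.9997 for each) and UQCRQ, FKBP4 and CD3D for IGLL1 (0.998 for each). The points include the difference between the groups, and 12.3% of 11045 genes reached 0.95 with CD79A and 9.38% with IGLL1. For EBF1 they were SPINK9 (0.997), DEDD2 (0.991) and KIZ (0.986), and 40 genes reached 0.95. CD79B was most like MAP3K4 (0.991), ZBTB2 (0.990) and MRE11 (0.983), and PAX5 most like ZNF718 (0.985), TGFBR1 (0.983) and LETM2 (0.974). With 6 points and many candidates, r is a description only.

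**Figure D4:**
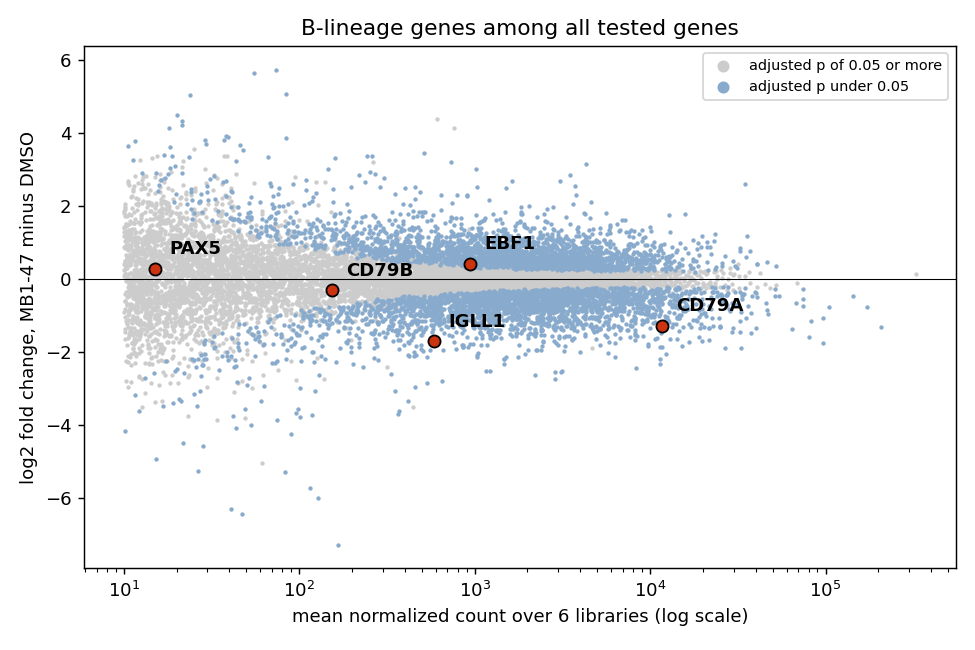
Log2 change against mean normalized count (log axis) for the 13465 tested genes, blue where the adjusted p was under 0.05, with the 5 B-lineage genes in red. CD79A lies far right at a mean of 11676, and PAX5 lies at the left edge, where the change of genes scatters most.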

How the data were processed

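RNA-seq values of 6 libraries of the T-ALL line DND41 were compared, 3 treated with MB1-47 and 3 with DMSO for 24 h. The deposited table holds 1 normalized count per gene symbol and library, scaled between libraries by the authors and treated here as a non-negative signal, per the file headers and the labels. The tools were kallisto 0.44.0 and DESeq, on GRCh38.p13, per the submitters' processing notes; the annotation, the summing of transcripts to genes and any strand setting were not given in the sources used here. Values were not whole: 48.4% to 58.2% of values under 20 in a library lay within 0.05 of a multiple of 1 shared step. Whole reads could therefore not be recovered, and the depth is unknown.

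Genes with a mean of at least 10 were tested on log2(value + 1) with limma 3.58.1 in R 4.3.3 (moderated test with intensity trend). Adjustment was by Benjamini and Hochberg's method over all genes tested, with a threshold of 0.05. Ratios between genes were tested by exact permutation of the libraries, two-sided. Only the main limma fit was tested on simulated data, with 200 changed genes against 5125 called in the real data. The other steps were not simulated. The 5 genes and the 9 lists were chosen with earlier results of these data known, and none supports another independently. The rule for named genes took the 5 genes, a fixed set of partners, up to 3 members past the threshold per list and direction with a mean of at least 50, and the 3 genes most alike to each of the 5. Of 158 list entries, 116 had a value, all matched by symbol; 1 of the named partners is not reported here.

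Replicate numbers are shared by the groups in the labels, which do not say that they mark a pairing. The alternatives were other pseudocounts (0.5 or 5), other filters (none or a mean of 50), scaling by the trimmed mean of M values, quantile normalization, equal library totals, no trend, a replicate block and leaving out each library. The median transcript length was added after the data were seen. Gene positions and transcript lengths are those of GENCODE 29 on GRCh38; promoter sequences are RefSeq's on GRCh38.p14. Plots used matplotlib 3.10.9 and Python 3.11.15.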

Additional observations from a re-analysis of the deposited data

How the results depend on the processing

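The calls of CD79A and IGLL1 and the missing calls of CD79B and PAX5 held in every alternative that tested them; PAX5 was not tested with a minimum mean of 50. Leaving out 1 library gave changes of -1.31 to -1.23 for CD79A, -1.86 to -1.55 for IGLL1, -0.51 to -0.10 for CD79B, 0.31 to 0.52 for EBF1 and 0.05 to 0.53 for PAX5. EBF1 kept its direction but missed the threshold with no filter (0.42, adjusted p = 0.0527), with the trimmed mean of M values (0.42, adjusted p = 0.0505) and without the trend (0.42, adjusted p = 0.0977). With the replicate block it changed by 0.42 with an adjusted p of 0.072, and the count of calls over all genes was 5246 in place of 5125. Same-numbered libraries correlated at 0.02, 0.06 and 0.01 in their deviations from the group means, and differently numbered ones at -0.06 to 0.03. These values do not settle whether the numbers mark a pairing. The main fit did not use them as one, since the labels state none. SYK (0.23 without MB1-47 replicate 1; -1.13 to 0.23 over the libraries left out), TCF7 (0.26 without MB1-47 replicate 1; -0.38 to 0.26) and MRE11 (0.00039 with equal library totals) turned in sign; none of the 3 passed in any alternative. For other named genes, 689 alternative values kept direction and call and 55 lost the call. Without the trend IKZF1, BCL11B, MALT1, PRKCB, INPP5D, LEF1, RUNX1, LIG4 and XBP1 were among the losses (adjusted p = 0.0547 to 0.116), and RUNX1 was also lost with no filter (0.063). The cause of these losses was not tested. The depth is unknown, so a small change of PAX5 or SYK was not detectable here.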

Other observations

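Segments of the immunoglobulin heavy chain locus, named after their values were seen, also gave signal in these T-ALL cells. Of 38 IGHV segments and pseudogenes with a value, 20 had a mean of at least 10; by limma 6 were lower with MB1-47 and 0 higher (6 and 0 at an unadjusted p under 0.05), against 19.8% lower and 18.3% higher among all genes tested. Their median log2 change was -1.14, beside 0.02 for all genes tested. Their summed level was 1471, 1530 and 1440 normalized counts in the DMSO libraries and 516, 547 and 536 in the MB1-47 libraries. IGHV1-3 was the highest, at 713, 587 and 671 with DMSO and 239, 191 and 190 with MB1-47 (-1.67 ± 0.18; adjusted p = 3.9e-05), without overlap. IGHV3-32 had 65.0, 57.3 and 122 with DMSO and was listed at 0 in all 3 MB1-47 libraries. The number lower was 3 without DMSO replicate 3 and 3 to 6 over all libraries left out in turn. Some IGHV segments are close to each other in sequence, so the split of reads between such segments is uncertain.

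Markers of mature B and plasma cells were present at uneven levels. Of 13 listed, 10 had a value and 8 were tested, with 1 lower and 1 higher, against 19.8% and 18.3% of all genes tested. CD38, an ectoenzyme that T-ALL blasts also carry, fell from 44837 ± 2209 to 27106 ± 1585 (-0.73 ± 0.08; adjusted p = 3.0e-05). XBP1, a factor of the unfolded protein response that plasma cells need, rose from 28149 ± 1720 to 34821 ± 2907 (0.31 ± 0.08; adjusted p = 0.0146), a call lost without DMSO replicate 3 or MB1-47 replicate 1 or 3 (adjusted p = 0.059 to 0.0719). The list had 2 higher genes without DMSO replicate 2 or MB1-47 replicate 2. MZB1, a chaperone cofactor of B cells and plasma cells (named after its values were seen), stood at 2076 ± 114 and 2495 ± 552 and did not pass (adjusted p = 0.203).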
